A study of Mus musculus with 24 samples.

Results

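The subject here is a set of 34 interferon response genes measured in mouse liver over the day, in mice lacking the PAR bZip transcription factors Hlf, Dbp and Tef and in mice carrying them. The genes were listed by name as a group. The rule kept those with a mean of at least 0.5 CPM (counts scaled to the library size) over 24 libraries, and all 34 passed. They are 34 of 54532 rows of the deposited count table and 34 of the 15090 genes with enough counts to be tested. The rule asks in particular whether high values at zeitgeber time 12 (ZT12, hours counted from lights on) in wild-type liver sit in 1 library or separate the genotypes.

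Type I and type III interferons are secreted when cells sense viral or other misplaced nucleic acid. They bind receptors whose JAK1 and TYK2 kinases activate STAT2, which joins IRF9 in a complex called ISGF3. This complex binds the interferon-stimulated response element (ISRE) and switches on antiviral genes together, among them the factor IRF7, which amplifies the response. Interferon gamma acts through its own receptor and strongly induces immunity-related GTPases. In liver, both hepatocytes and the resident macrophages called Kupffer cells can respond.

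The study compared 2 genotypes at 6 times. Knockout mice were Hlf-/-/Dbp-/-/Tef-/-, deficient for all 3 factors, and wild-type mice were Hlf+/+/Dbp+/+/Tef+/+. Both genotypes were fed ad libitum, were 12 to 16 weeks old and were sampled every 4 h, ZT04 being the first time and ZT24 the last, which makes 12 groups of 2 libraries. Sample descriptions mark one library of each pair with I (replicate 1) and the other with P (replicate 2), and the terms set I and set P stand for these. Neither the meaning of the letters nor a separate animal for each library is stated. The p-values therefore cover the spread of these samples alone, and that spread may be technical.

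Libraries held 14613001 to 19288322 counts. Dbp lay between 0 and 0.114 CPM in knockout libraries and between 0.279 and 56.8 CPM in wild-type libraries, Hlf between 0.112 and 3.34 CPM against 46.9 to 95.6 CPM, and Tef between 3.54 and 30.1 CPM against 42.4 to 330 CPM. The hepatocyte markers Alb, Apoa1, Ttr, Asgr1, Serpina1a, Tat and Hnf4a were all detected, with a summed level of 36167 to 60017 CPM in knockout libraries and 60665 to 89765 CPM in wild-type libraries. The wild-type set I libraries of ZT04, ZT16 and ZT20 stood apart in base composition. Across all genes tested, deviations from the median library correlated with transcript GC content at r of 0.564 to 0.637 in those 3 libraries and at -0.276 to 0.283 in the other 21. All 6 wild-type set I libraries were shifted this way, at r of 0.193 to 0.637, with ZT12 of set I at 0.249. Wild-type set P libraries lay at -0.190 to 0.046 and knockout libraries at -0.276 to 0.009. Counts and medians of the main comparisons are also given without the 3 libraries that stood apart. In whole liver, fewer cells of a type and less RNA per cell cannot be told apart.

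The 34 genes took between 0.125% and 0.234% of all counts in knockout libraries and between 0.0755% and 0.322% in wild-type libraries. Levels between genes are compared per kilobase of the longest transcript. On that scale Iigp1, an immunity-related GTPase, was highest at a mean of 146 CPM per kilobase over 24 libraries, and Bst2 (tetherin, which holds budding virus at the cell surface) followed at 146 CPM per kilobase. Ifi27 at 69.4 and Igtp at 50.5 CPM per kilobase came next, and the median of the 34 genes was 7.39. Oas3, an oligoadenylate synthetase that makes the signal for RNase L, was lowest at 0.737 CPM per kilobase, and Mx1, a dynamin-like antiviral GTPase, stood just above it at 0.892.

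The mean level of the 34 genes per library was taken as the mean of log2(CPM + 0.5) after each gene was centred on its own mean over 24 libraries. Knockout libraries lay between -0.32 and 0.66, with a mean of 0.09 and an SD of 0.32 (n = 12). Wild-type libraries ranged more widely, from -1.05 to 1.71, with a mean of -0.09 and an SD of 0.79 (n = 12). The genotype means thus lay closer together than either SD.

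**Figure D1:**
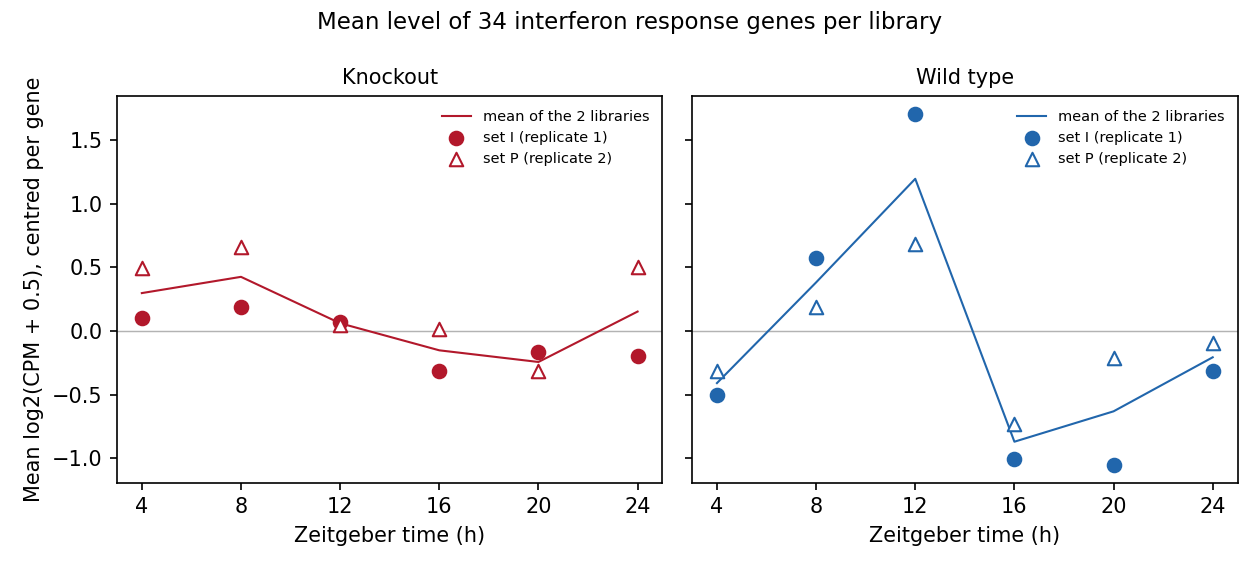
Mean log2(CPM + 0.5) of the 34 genes, centred per gene, against zeitgeber time in hours, with knockout on the left and wild type on the right. Filled circles are set I, open triangles are set P, and lines join the means of the 2 libraries; the wild-type ZT12 libraries at 1.71 and 0.69 are the highest of their genotype, and knockout libraries stay between -0.32 and 0.66.

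At ZT12 the mean level was 0.07 in the set I library and 0.05 in the set P library of knockout liver, against 1.71 in set I and 0.69 in set P of wild-type liver. The wild-type set I library was the highest of all 24 libraries. The wild-type set P library was the next highest, barely above the highest knockout library, ZT08 of set P at 0.66. Both wild-type ZT12 libraries were above the other 10 wild-type libraries, which reached 0.57 at ZT08 of set I. The lowest levels were those of wild-type ZT20 of set I at -1.05 and wild-type ZT16 at -1.01 and -0.73.

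Gene by gene, the highest library was most often the same one. The wild-type ZT12 library of set I was the highest of the 24 libraries for 27 of the 34 genes, against 7.99% of all genes tested. It exceeded the wild-type ZT12 library of set P for all 34 genes, by a ratio of 1.09 for Eif2ak2 to 3.25 for Oas3 with a median of 2.18. The share over all genes tested was not taken for that order, and genes that vary together are not replicates. Relative to the median of the 12 wild-type libraries, the set I library stood at a ratio of 1.32 to 11.9 with a median of 3.91. The set P library stood at 1.01 to 3.79 with a median of 1.63. In knockout liver the ZT12 libraries stood at a median of 1.02 (set I) and 0.996 (set P) times the knockout median. No gene reached 2 times that median at knockout ZT12.

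The highest wild-type library was at least 3 times the wild-type median for 20 of the 34 genes, against 5.24% of all genes tested, and it was ZT12 of set I for each of them. The highest knockout library reached 3 times the knockout median for 1 gene, Ifit1, against 2.35% of all genes tested. Without any threshold on size, both wild-type ZT12 libraries were above the other 10 wild-type libraries for 17 genes, against 3.81% of all genes tested. Both knockout ZT12 libraries were above the other 10 knockout libraries for none, against 3.94%. Both wild-type ZT12 libraries were above all other 22 libraries for 6 genes, Ifit3, Isg15, Oasl2, Usp18, Mx1 and Zbp1, against 1.6% of all genes tested.

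**Figure D2:**
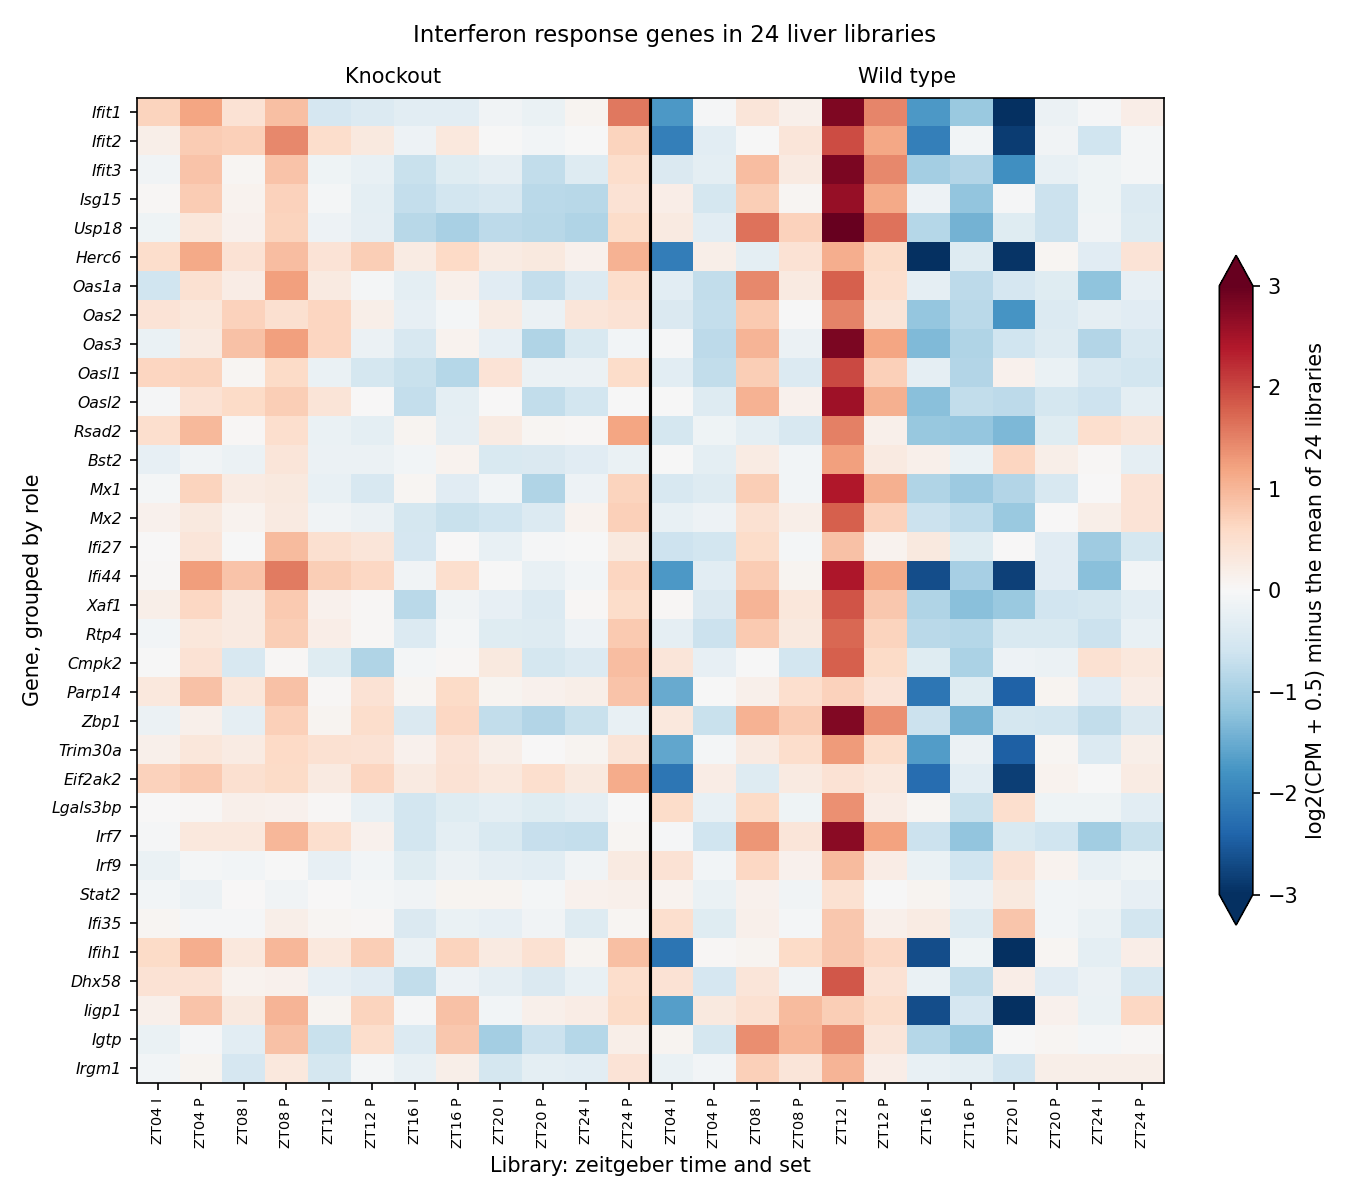
log2(CPM + 0.5) of each gene minus its mean over 24 libraries, with genes grouped by role in rows and libraries in columns, knockout left of the line and wild type right of it. Red is above and blue below the mean; the wild-type ZT12 column of set I is red in nearly every row, and 3 wild-type set I columns (ZT04, ZT16 and ZT20) hold dark blue cells, mostly in rows of genes of low GC content.

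The first comparison asks whether ZT12 differed from the other 5 times within a genotype. ZT12 was singled out by the rule, and the 34 genes were listed with earlier results of these data known. Calls at ZT12, here and in later comparisons, therefore describe these libraries and are no independent test. In wild-type liver, 21 of the 34 genes rose at ZT12 and none fell, against 3.47% of all genes tested that rose and 1.89% that fell (edgeR quasi-likelihood test, Benjamini-Hochberg adjusted p under 0.05). The median log2 fold change was 1.51 for the 34 genes and 0.02 for all genes tested. All 34 values were above 0, as were 7864 of the 15090 genes tested. In knockout liver the same comparison called 0 of the 34 genes, against 1.07% of all genes tested in either direction, with 0 at an unadjusted p under 0.05 and 0 by DESeq2. Its median log2 fold change was -0.02, with 16 genes above 0 and 18 below.

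The wild-type calls rested mainly on 1 library. Most of the 21 calls were lost without the ZT12 library of set I. Calls over all genes tested also became far fewer in that fit, so the loss is not particular to these genes. The 21 genes then had log2 fold changes of 0.25 (Bst2) to 2.14 (Ifit1) with a median of 1.38, all above 0. In that fit 1 library stood for wild-type ZT12 and was assumed to vary like the other groups. The count rose without the ZT12 library of set P, which likewise leaves 1 library for wild-type ZT12. Without the 3 wild-type set I libraries that stood apart, 26 genes rose, against 8.62% of all genes tested in either direction, and the median was 1.56.

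**Figure D3:**
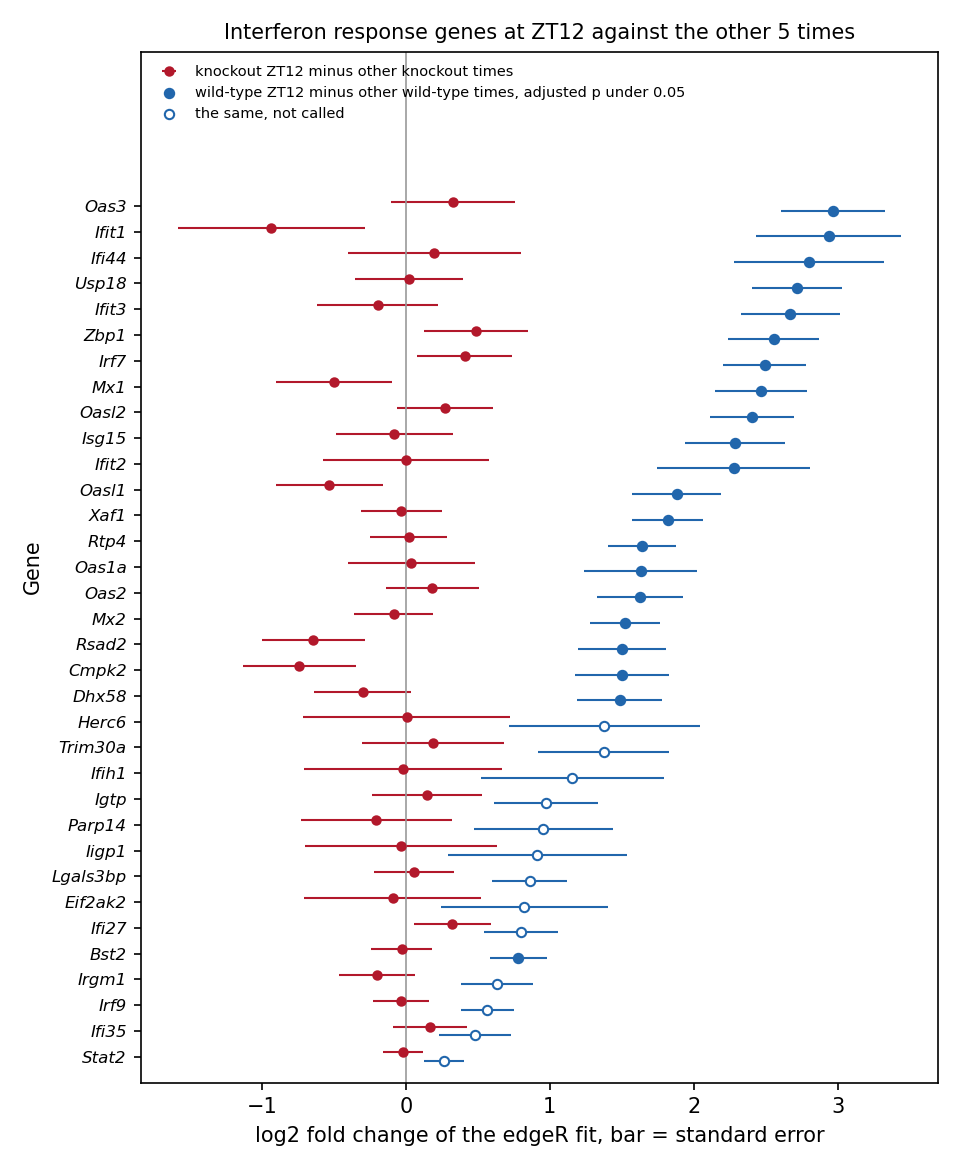
log2 fold change of ZT12 against the other 5 times for each gene, in knockout liver (red) and in wild-type liver (blue, filled where the adjusted p is under 0.05), from the edgeR fit; bars are standard errors. Wild-type values run from 0.26 for Stat2 to 2.97 for Oas3, and knockout values from -0.93 for Ifit1 to 0.49 for Zbp1.

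The IFIT proteins bind foreign RNA and block its translation, and all 3 rose at wild-type ZT12. Ifit3 had 10.4 CPM (set I) and 9.73 CPM (set P) at knockout ZT12 and 6.64 to 21.05 CPM in the other 10 knockout libraries. In wild-type liver it had 83.2 and 31.6 CPM at ZT12 and 2.83 to 22.2 CPM in the other 10 libraries. Both wild-type ZT12 libraries were thus above every other library of either genotype. Ifit1 had 5.98 and 6.38 CPM at knockout ZT12, against 63.1 and 24.9 CPM at wild-type ZT12. Its ZT12 values were the lowest of the 12 knockout libraries, which went up to 26.8 CPM at ZT24 of set P, and the highest of the 12 wild-type libraries, which went down to 0.493 CPM at ZT20 of set I. Ifit2 had 10.4 and 8.77 CPM at knockout ZT12, against 29.2 and 16.5 CPM at wild-type ZT12, where the other 10 wild-type libraries lay between 0.555 and 9.25 CPM. The log2 fold changes at wild-type ZT12 were 2.94 ± 0.50 for Ifit1, 2.28 ± 0.53 for Ifit2 and 2.67 ± 0.34 for Ifit3 (± SE), with edgeR adjusted p of 0.00279, 0.0198 and 0.000327.

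ISG15 is a ubiquitin-like protein attached to other proteins during an interferon response, and USP18 removes it and damps receptor signalling. Isg15 had 10.2 and 8.71 CPM at knockout ZT12, against 68.6 and 24.1 CPM at wild-type ZT12, with 4.46 to 18.2 CPM in the other 10 wild-type libraries. Usp18 had 10.8 and 9.85 CPM at knockout ZT12, against 105.5 and 38.46 CPM at wild-type ZT12. Wild-type ZT08 of set I came close to the lower of these at 38.1 CPM, and the other 9 wild-type libraries had lower values. Usp18 rose by 2.72 ± 0.31 on the log2 scale at wild-type ZT12 (edgeR adjusted p = 0.000135) and Isg15 by 2.29 ± 0.34 (edgeR adjusted p = 0.00104). Herc6, the mouse ligase that attaches ISG15, was not called, at 1.38 ± 0.66 (edgeR adjusted p = 0.314). Its 26.9 and 18.8 CPM at wild-type ZT12 were the highest of the 12 wild-type libraries but lay within the 13.6 to 27.8 CPM of the knockout libraries.

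All 5 oligoadenylate synthetase genes rose at wild-type ZT12. Oas3 had 4.34 and 2.22 CPM at knockout ZT12, against 21.3 and 6.55 CPM at wild-type ZT12 and 0.737 to 5.73 CPM in the other 10 wild-type libraries. Its log2 fold change of 2.97 ± 0.36 was the largest of the 34 genes (edgeR adjusted p = 0.000205). Oasl2 had 10.9 and 8.25 CPM at knockout ZT12 and 50.1 and 17.7 CPM at wild-type ZT12. The step was 2.4 ± 0.29 for Oasl2, 1.88 ± 0.31 for Oasl1, 1.63 ± 0.39 for Oas1a and 1.63 ± 0.30 for Oas2, with edgeR adjusted p of 0.000185 to 0.0230. Oasl1 had 3.99 and 3.07 CPM at knockout ZT12, against 20 and 8.01 CPM at wild-type ZT12, and Oas1a had 5.98 and 4.67 CPM against 18.2 and 7.10 CPM. Oas2 was the one member of this family whose genotypes overlapped at ZT12, with 9.09 and 6.43 CPM in knockout and 16.7 and 7.58 CPM in wild-type liver. For Oas1a, Oas2 and Oasl1, wild-type ZT08 of set I was above wild-type ZT12 of set P, at 14.2, 10.1 and 8.13 CPM.

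Among the other antiviral effectors, 9 of 14 rose at wild-type ZT12. Mx1 had 2.05 and 1.65 CPM at knockout ZT12, against 15.2 and 5.70 CPM at wild-type ZT12, a low level throughout. Mx2 had 13.2 and 12.6 CPM against 50.2 and 23.2 CPM. The gene annotation used here lists Mx2 as a polymorphic pseudogene, so its transcript level does not imply a working protein. Zbp1, a sensor of Z-form nucleic acid that can trigger cell death, had 11.7 and 16.2 CPM at knockout ZT12 and 78.7 and 29.8 CPM at wild-type ZT12. For all 3 genes both wild-type ZT12 libraries were above the other 10 wild-type libraries. Rsad2 (viperin) and Cmpk2 are neighbours on chromosome 12 whose products act on nucleotides. Rsad2 had 8.15 and 7.68 CPM at knockout ZT12, against 28.0 and 10.6 CPM at wild-type ZT12, and wild-type ZT24 at 13.6 and 12.4 CPM was above ZT12 of set P. Cmpk2 had 5.57 and 3.70 CPM against 26.9 and 11.2 CPM, and its ZT24 values in wild-type liver were 10.3 and 9.19 CPM. In knockout liver both genes were highest at ZT24 of set P, at 22.1 CPM for Rsad2 and 14.5 CPM for Cmpk2.

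Ifi44 had 13.9 and 12.7 CPM at knockout ZT12, against 45.8 and 18.9 CPM at wild-type ZT12. Xaf1, a pro-apoptotic factor, had 29.1 and 27.2 CPM against 99.2 and 47.2 CPM, and Rtp4, a chaperone of membrane receptors, had 23.1 and 20.7 CPM against 67.9 and 32.3 CPM. For Xaf1 and Rtp4, wild-type ZT08 of set I at 54.4 and 35.0 CPM was above wild-type ZT12 of set P. Bst2 had 97.7 and 98.2 CPM at knockout ZT12, against 263 and 133 CPM at wild-type ZT12, and wild-type ZT20 of set I had 174 CPM. Of these genes Ifi44 had the largest step at 2.80 ± 0.52 and Bst2 the smallest at 0.78 ± 0.20 on the log2 scale (edgeR adjusted p = 0.00481 and 0.0320). The Bst2 call was also lost without wild-type ZT24 of set P, at an edgeR adjusted p of 0.0537. The 5 effectors not called at wild-type ZT12 were Ifi27, Parp14, Trim30a, Eif2ak2 and Lgals3bp, with log2 fold changes of 0.80 to 1.37. Eif2ak2, the kinase PKR that halts translation on sensing double-stranded RNA, was the flattest of the 34 genes in the wild-type ZT12 set I library, at 1.32 times its wild-type median.

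The transcription factors of the pathway did not move alike. Irf7 had 49.7 and 38.4 CPM at knockout ZT12, against 233 and 81.4 CPM at wild-type ZT12. The other wild-type libraries of Irf7 lay between 15.3 CPM at ZT16 of set P and 88.1 CPM at ZT08 of set I, and the step at wild-type ZT12 was 2.49 ± 0.29 (edgeR adjusted p = 0.000138). Stat2 had 108 and 104 CPM at knockout ZT12, against 148 and 107 CPM at wild-type ZT12, a step of 0.26 ± 0.14 that was not called (edgeR adjusted p = 0.367). Irf9 had 44.96 and 50.4 CPM against 104 and 62.3 CPM, and was not called at 0.57 ± 0.19 (edgeR adjusted p = 0.102). Its exons overlap Rnf31 on the same strand, so its counts are uncertain. Ifi35, a partner protein of the pathway, was not called at 0.48 ± 0.25.

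Of the RNA sensors, Dhx58 (LGP2) rose by 1.49 ± 0.29 on the log2 scale (edgeR adjusted p = 0.00732), with 10.6 and 9.90 CPM at knockout ZT12 and 47.6 and 17.3 CPM at wild-type ZT12. Ifih1 (MDA5), the sensor of long double-stranded RNA, was not called at 1.16 ± 0.63. It had 51.1 and 68.3 CPM at knockout ZT12, against 72.6 and 63.3 CPM at wild-type ZT12. None of the 3 immunity-related GTPases Iigp1, Igtp and Irgm1 was called, at 0.91, 0.97 and 0.63. Igtp had 56.6 and 131 CPM at knockout ZT12, against 240 and 116 CPM at wild-type ZT12, and wild-type ZT08 was as high, at 236 and 180 CPM; Igtp shares exons with Irgm2.

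**Figure D4:**
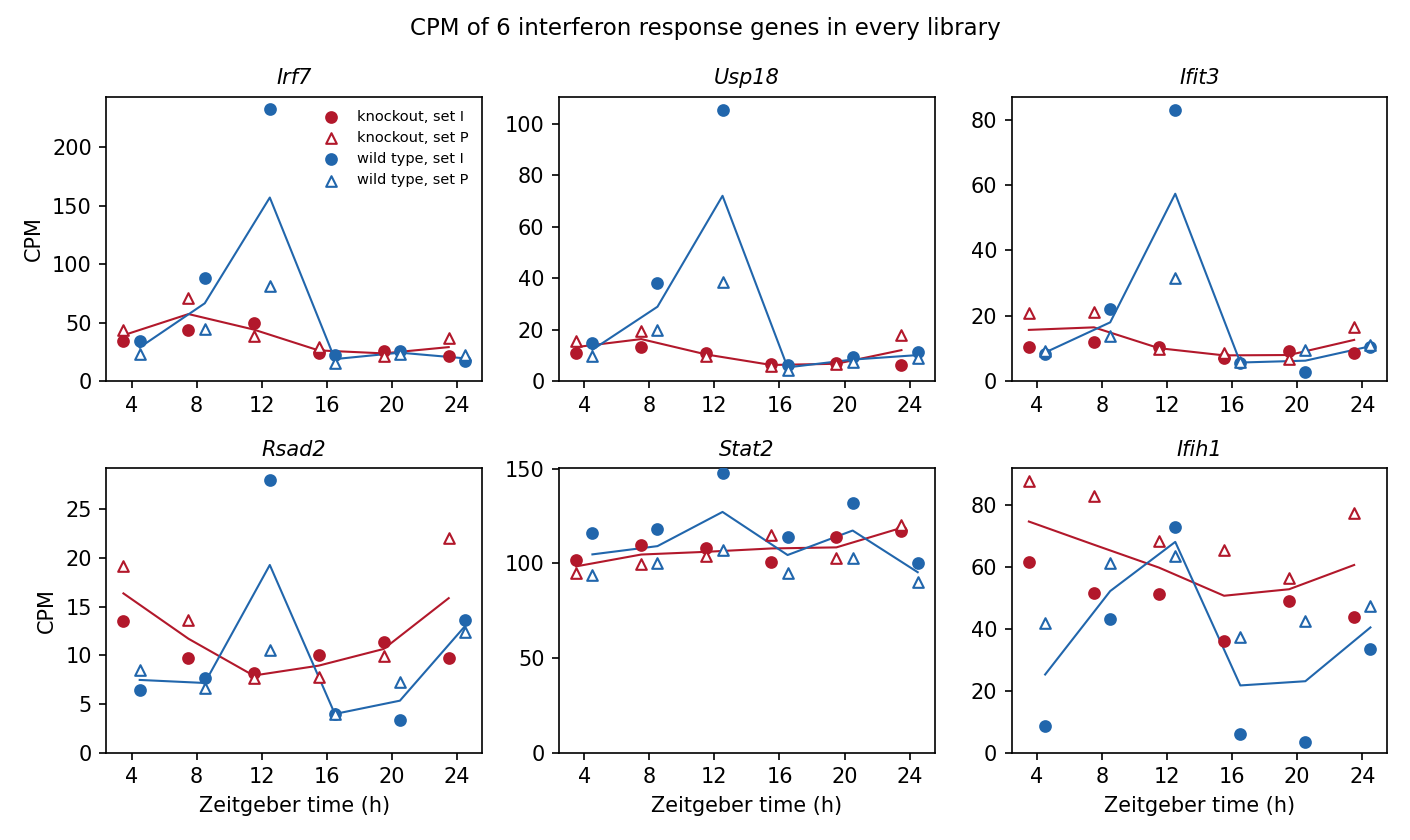
CPM of 6 of the genes in every library against zeitgeber time in hours, with knockout in red and shifted to the left of wild type in blue; filled circles are set I, open triangles set P, and lines join the means of 2 libraries. Irf7, Usp18, Ifit3 and Rsad2 peak in the wild-type ZT12 library of set I, Stat2 stays between 90.4 and 148 CPM, and Ifih1 falls to 3.51 CPM in wild-type ZT20 of set I.

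The core of the ISRE bound by ISGF3 is GAAA, any 2 bases and GAAA again, so promoter windows of 250 bases before to 50 after the RefSeq start (GRCm38.p6) were searched for these letters on both strands. There were windows for 24 of the 34 genes, and 13 of the 24 held at least 1 match, against 3.44% of all 32851 windows. The 13 genes were Ifit1, Ifit3, Isg15, Oas1a, Oas3, Rsad2, Stat2, Bst2, Ifih1, Trim30a, Eif2ak2, Igtp and Irgm1. They include genes called at wild-type ZT12 and genes that were not. The gamma-activated site TTCNNNGAA matched in 6 of the 24 genes, Ifit2, Oas1a, Bst2, Ifi35, Eif2ak2 and Igtp, against 8.3% of all windows. The PAR bZip sites TTATGTAA and TTACGTAA matched in 0 of the 24, against 0.938% and 0.119% of all windows. Letters this rare would seldom match in 24 genes of any kind, so no conclusion is drawn from the 0. A match is a description of these letters and no measure of binding.

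Windows are shown for 4 genes with large wild-type ZT12 values and 3, 2, 1 and 0 matches to the ISRE core. Capitals mark the matches, which read TTTC, 2 bases and TTTC where the core lies on the other strand. They lie at chr4:156200769-156201068 (minus strand) for Isg15, chr19:34583279-34583578 (plus strand) for Ifit3, chr12:26456403-26456702 (minus strand) for Rsad2 and chr7:141266375-141266674 (minus strand) for Irf7.
Isg15: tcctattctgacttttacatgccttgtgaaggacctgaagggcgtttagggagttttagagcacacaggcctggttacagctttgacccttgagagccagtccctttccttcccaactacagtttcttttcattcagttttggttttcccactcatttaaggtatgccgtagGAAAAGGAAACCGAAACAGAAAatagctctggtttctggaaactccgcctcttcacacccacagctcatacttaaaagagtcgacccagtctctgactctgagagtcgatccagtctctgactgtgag
Ifit3: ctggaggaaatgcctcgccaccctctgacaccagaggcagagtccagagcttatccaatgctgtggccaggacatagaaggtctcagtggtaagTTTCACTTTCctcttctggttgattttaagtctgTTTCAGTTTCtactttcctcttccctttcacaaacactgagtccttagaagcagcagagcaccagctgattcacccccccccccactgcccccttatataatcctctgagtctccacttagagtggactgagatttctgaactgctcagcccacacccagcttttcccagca
Rsad2: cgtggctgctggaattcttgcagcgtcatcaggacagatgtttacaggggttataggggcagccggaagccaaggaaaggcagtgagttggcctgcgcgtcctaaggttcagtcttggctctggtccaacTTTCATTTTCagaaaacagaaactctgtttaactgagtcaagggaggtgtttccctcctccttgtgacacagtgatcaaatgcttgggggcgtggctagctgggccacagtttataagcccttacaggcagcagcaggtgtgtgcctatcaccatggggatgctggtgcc
Irf7: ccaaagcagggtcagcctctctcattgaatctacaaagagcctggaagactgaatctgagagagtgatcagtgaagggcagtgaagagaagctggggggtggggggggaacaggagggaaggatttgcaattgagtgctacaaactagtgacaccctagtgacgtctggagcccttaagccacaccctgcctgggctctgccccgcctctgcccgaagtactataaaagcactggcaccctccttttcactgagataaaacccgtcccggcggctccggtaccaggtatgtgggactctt
In Isg15 the 3 matches overlap each other, with first bases at -78, -72 and -66 from the start. In Ifit3 they begin at -156 and -122 and in Rsad2 at -120, all on the other strand. The Irf7 window holds none of these letters, although its wild-type ZT12 step was 2.49.

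The second comparison asks where the genotypes differed. At ZT12, 7 of the 34 genes were lower in knockout than in wild-type liver and none was higher, against 1.15% of all genes tested that were lower and 0.696% that were higher (edgeR adjusted p under 0.05). The 7 genes were Usp18 at -2.80 ± 0.51, Ifit3 at -2.51 ± 0.55, Mx1 at -2.49 ± 0.50, Isg15 at -2.29 ± 0.54, Cmpk2 at -2.04 ± 0.49, Oasl1 at -1.99 ± 0.47 and Mx2 at -1.51 ± 0.35 on the log2 scale (± SE). Their edgeR adjusted p ran from 0.00813 for Usp18 to 0.0465 for Cmpk2. The median over the 34 genes was -1.25, against -0.01 over all genes tested. Below 0 were 33 of the 34 values and 7679 of the 15090 genes tested. Both knockout libraries were below both wild-type libraries for 25 genes, against 26% of all genes tested. Just outside the threshold stood Irf7 at -1.83 ± 0.45 and Oasl2 at -1.82 ± 0.45, both at an edgeR adjusted p of 0.0513.

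This count depends on the wild-type ZT12 library of set I. Without that library every call was lost, as it was without either knockout ZT12 library. The count rose without the wild-type ZT12 library of set P. Each of these fits leaves 1 library in a group, and the number called over all genes tested fell and rose with the count. The count also fell without any one of the knockout ZT04, knockout ZT16 and wild-type ZT24 libraries, and rose without wild-type ZT20 of set I. Calls over all genes tested moved the same way there. Ifit3, Mx1 and Usp18 lost their call without wild-type ZT12 of set I or either knockout ZT12 library and kept it without each of the other 21 libraries. DESeq2 called 15 of the 34 genes as lower, and so did edgeR with a GC and length offset. Those fits called 415 and 514 of all genes tested in either direction, against 279 in the reported fit. Without the 3 wild-type set I libraries that stood apart, the median over the 34 genes was -1.23.

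At the other 5 times edgeR called 0 of the 34 genes, against 1.26% of all genes tested at ZT04, 0.934% at ZT08, 1.65% at ZT16, 3.93% at ZT20 and 0.676% at ZT24. Unadjusted p was under 0.05 for 4 genes at ZT04, 0 at ZT08, 4 at ZT16, 4 at ZT20 and 2 at ZT24, and DESeq2 called 1 gene at ZT20 and 0 at the other 4 times. The median log2 difference of knockout minus wild type was 0.60 at ZT04, -0.01 at ZT08, 0.65 at ZT16, 0.10 at ZT20 and 0.34 at ZT24. Both knockout libraries were above both wild-type libraries for 20 genes at ZT04, against 23.8% of all genes tested, and for 19 at ZT16, against 29.8%. Ifi44 had the largest of these differences, with 7.58 and 11.7 CPM at knockout ZT16 and 0.860 and 3.82 CPM at wild-type ZT16, a log2 difference of 2.04. The 0.860 CPM is that of set I, one of the 3 libraries that stood apart, and Ifi44 is a gene of low GC content. Without those libraries its difference was 1.32, and the medians over the 34 genes were 0.75 at ZT04, 0.62 at ZT16 and 0.03 at ZT20, again with 0 genes called. At ZT20 the smallest edgeR adjusted p was that of Bst2 at 0.0700. The count there was 1 gene without either wild-type ZT12 library, and 15 genes without the wild-type ZT20 library of set P, which leaves 1 of the 3 libraries that stood apart to stand for wild type. In that last fit 52% of all genes tested were called, more than the 44.1% of the 34 genes.

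Averaged over the 6 times, 2 genes were higher in knockout than in wild-type liver, against 12.1% of all genes tested, and 3 were lower, against 21.1%. Either direction held 5 of the 34 genes, against 33.2% of all genes tested, so calls were rarer here than over all genes. The genes that rose were Oas2 at 0.56 ± 0.18 and Rsad2 at 0.50 ± 0.18, and those that fell were Usp18 at -0.56 ± 0.20, Bst2 at -0.34 ± 0.11 and Irf9 at -0.30 ± 0.10 (log2 ± SE). Their edgeR adjusted p lay between 0.0285 and 0.0444. The median over the 34 genes was 0.00, with 17 genes above 0 and 17 below.

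Oas2 averaged 7.09 ± 1.52 CPM in knockout libraries and 5.58 ± 4.22 CPM in wild-type libraries (SD, n = 12 each). Its knockout libraries lay between 4.67 and 9.44 CPM with a median of 7.33, and its wild-type libraries between 1.29 and 16.7 CPM with a median of 4.25. Rsad2 averaged 11.9 ± 4.55 CPM in knockout and 9.37 ± 6.70 CPM in wild-type libraries. For both genes the ranges overlapped and the highest library was a wild-type one. Usp18 averaged 10.8 ± 4.72 CPM in knockout and 22.8 ± 28.5 CPM in wild-type libraries, with nearly equal medians of 10.3 and 10.4 CPM. Bst2 averaged 100 ± 16.9 CPM in knockout and 130 ± 47.7 CPM in wild-type libraries, and Irf9 48.9 ± 6.15 CPM and 61.5 ± 18.9 CPM.

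The averaged count moved with most libraries. With 1 library left out at a time it was 0 without knockout ZT20 of set I or wild-type ZT16 of set I, 12 without wild-type ZT04 or ZT16 of set P, 15 without wild-type ZT20 of set P, and 1 to 3 without each of 16 others. The fits with 12 and 15 genes called 48.7% to 58.4% of all genes tested, a larger share than the 35.3% and 44.1% of the 34 genes. Leaving out ZT12 gave 5 genes higher and 0 lower, and of the 5 genes named above only Oas2 and Rsad2 stayed called. Set P alone gave 6 genes higher and 0 lower, whereas set I alone gave 1 higher and 4 lower. Of all genes tested, leaving out ZT12 called 3872, set P alone 1877, set I alone 4946 and DESeq2 5250. The reported fit called 5007. DESeq2 gave 6 higher and 3 lower, and the fit without the 3 libraries that stood apart gave 1 higher and 0 lower. In that last fit none of the 5 genes named above stayed called, and the 1 gene was Eif2ak2 at 0.47, against 21.3% of all genes tested, with a median of 0.07 over the 34 genes. With the GC and length offset Oas2 alone of the 5 stayed called.

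Whether the ZT12 step differed between genotypes was tested as an interaction, the ZT12 step in knockout minus that in wild-type liver. All 34 differences were below 0, with a median of -1.61 and a range of -3.87 (Ifit1) to -0.28 (Stat2). Of the 15090 genes tested, 8025 were below 0. The edgeR test called 0 of the 34 genes, against 0.0331% of all genes tested, while 23 had an unadjusted p under 0.05 and DESeq2 called 16, all lower. Mx1 had the smallest edgeR adjusted p at 0.120, with a difference of -2.96 ± 0.55. With a GC and length offset the interaction was called for 6 genes. Over all genes tested, DESeq2 called 80 and the offset fit 33, against 5 in the reported fit. The count also rose without the wild-type ZT12 library of set P, which leaves 1 library there, as did calls over all genes tested. Without the 3 libraries that stood apart the median was -1.66. So the step was called in wild-type liver and not in knockout liver, and the difference between them was called for 16 genes by DESeq2 and for none by edgeR.

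For the daily course, a 24 h cosine was fitted to each genotype. In wild-type liver 14 of the 34 genes were called rhythmic, against 8.67% of all genes tested, and in knockout liver 0, against 3.57%, with 1 at an unadjusted p under 0.05 and 0 by DESeq2. The 14 genes were Ifit3, Isg15, Usp18, Oas1a, Oas2, Oas3, Oasl1, Oasl2, Irf7, Ifi27, Ifi44, Xaf1, Rtp4 and Zbp1. Their wild-type curves peaked between 9.42 and 12.3 h with a median of 10.3 h, and their log2 amplitudes, the height above the mean of the curve, ran from 0.62 for Ifi27 to 1.495 for Oas3. In knockout liver the same genes had amplitudes of 0.33 to 0.81. The difference between the curves was called for 0 of the 34 genes and for 0% of all genes tested, with 10 of the 34 at an unadjusted p under 0.05 and 0 by DESeq2.

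Irf7 had the smallest p for a wild-type rhythm, with an amplitude of 1.37, a peak at 10.7 h and an edgeR adjusted p of 0.00175. Ifi27, a mitochondrial protein that was called rhythmic but not at ZT12 alone, had 90.5 and 82.9 CPM at knockout ZT12, against 119 and 68.7 CPM at wild-type ZT12. It was highest in knockout ZT08 of set P at 124 CPM and lowest in wild-type ZT24 of set I at 30.2 CPM. Without the wild-type ZT12 library of set I, 5 of the 14 genes stayed rhythmic, Irf7, Oasl2, Usp18, Xaf1 and Zbp1, and the same 5 stayed without both wild-type ZT12 libraries. Without ZT12 in either genotype 3 stayed, Irf7, Usp18 and Xaf1, and within set I or set P alone 0 of the 34 were called, with 19 and 10 at an unadjusted p under 0.05. The fit of set I alone called 0 of all genes tested, so it could show no call in the 34, and that of set P alone called 6.13%. For the knockout rhythm, set P alone called 1 of the 34 genes, with 13 at an unadjusted p under 0.05. It called 806 of all genes tested. Set I alone called 0, with 0 at an unadjusted p under 0.05. Without ZT12 in either genotype the knockout rhythm was called for 0 genes, with 10 at an unadjusted p under 0.05. Without the 3 libraries that stood apart, 18 genes were rhythmic in wild-type liver, against 12.5% of all genes tested.

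In knockout liver the highest value of most of the 34 genes sat in a few set P libraries. The highest knockout library belonged to set P for 32 of the 34 genes, and it was ZT08 for 17, ZT24 for 10 and ZT04 for 5. The share over all genes tested was not taken, so this is not shown to be particular to these genes. Genes that vary together are not replicates. The mean level of set P was above that of set I at 4 of 6 times in each genotype. At ZT24 Ifit1 had 9.10 CPM in set I and 26.8 CPM in set P of knockout liver, against 8.42 and 9.97 CPM in wild-type liver. A single knockout library was thus 3.15 times the knockout median for this gene, the one such case among the 34.

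In the 3 wild-type set I libraries that stood apart, the lowest values sat in genes of low GC content. There, deviations of the 34 genes correlated across genes with transcript GC content at r of 0.798, 0.818 and 0.857, a description, since genes are not replicates. The 9 genes under 45% GC were Ifit1, Ifit2, Rsad2, Ifi44, Ifih1, Herc6, Trim30a, Eif2ak2 and Iigp1, a limit chosen after the values were seen. Their mean level was -1.74, -2.26 and -2.81 in these libraries at ZT04, ZT16 and ZT20, against -0.06, -0.56 and -0.42 for the other 25 genes. In the set P libraries of the same groups the 9 genes stood at -0.02, -0.54 and -0.06, and the other 25 at -0.42, -0.80 and -0.26.

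**Figure D5:**
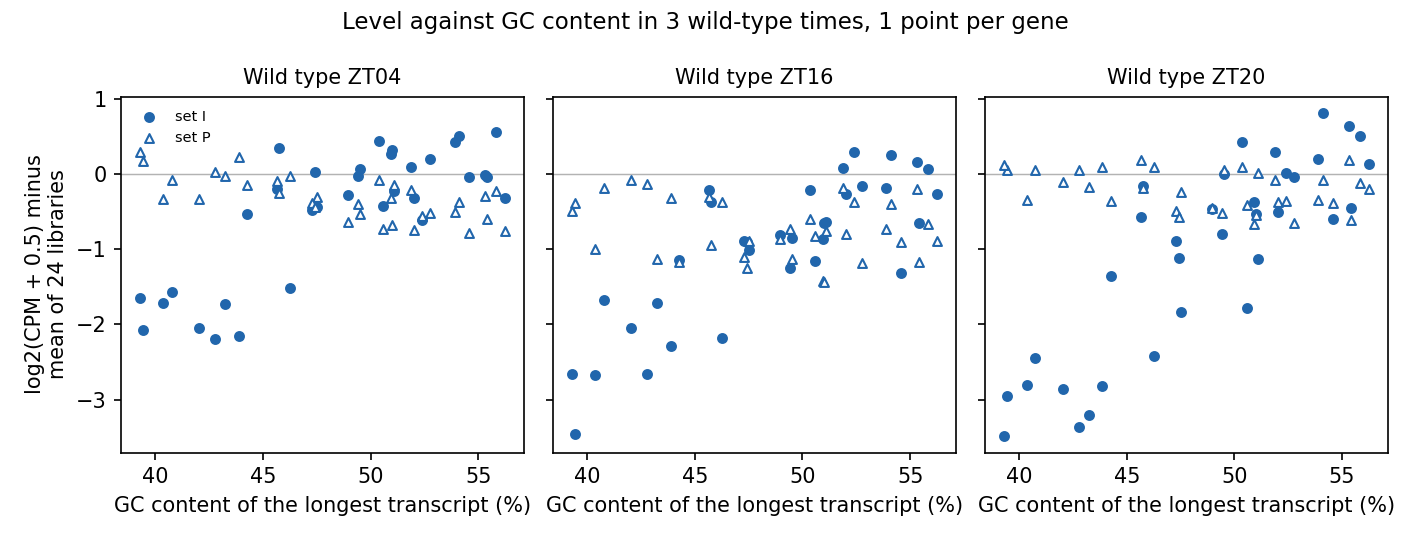
log2(CPM + 0.5) of each gene minus its mean over 24 libraries, against the GC content of its longest transcript in percent, in wild-type liver at ZT04, ZT16 and ZT20; filled circles are set I and open triangles set P. In set I the genes under 45% GC lie far below the others, with means of -1.74, -2.26 and -2.81, which is not seen in set P.

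Iigp1, at 39.28% GC the lowest of the 34, had 121, 59.6 and 33.4 CPM in those 3 libraries and 270 to 734 CPM in the other 9 wild-type libraries, with 359 to 768 CPM in knockout libraries. Ifih1 had 8.60, 6.08 and 3.51 CPM there, against 33.6 to 72.6 CPM in the other 9 wild-type libraries. Eif2ak2 had 4.88, 4.42 and 2.90 CPM, and 17.9 to 32.1 CPM in the other 9. After a GC and length offset per library, the 9 genes stood at -0.92, -1.43 and -1.65 and the other 25 at -0.33, -0.83 and -0.76, so that the gap narrowed but did not close. The wild-type ZT12 library of set I showed a smaller gap in the same direction, at 1.45 for the 9 genes and 1.80 for the other 25 before the offset and 1.66 and 1.73 after it. With the offset, 28 of the 34 genes rose at wild-type ZT12. Over all genes tested, 1346 were called there in either direction, against 808 without the offset.

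The genes upstream of the response were read as lists chosen with earlier results of these data known. Interferons themselves were hardly detected. Of 21 interferon genes in the table, 18 had 0 counts in all 24 libraries and none passed the count filter, and the 21 together had 31 counts over 12 knockout libraries and 17 over 12 wild-type libraries. At ZT12 there were 2 counts over both knockout libraries and 2 over both wild-type libraries. An interferon source was therefore not measurable at this depth. None of 8 tested receptor and kinase genes, none of 7 tested transcription factors outside the 34 and none of 7 negative regulators was called by edgeR at wild-type ZT12, with 0, 3 and 2 at an unadjusted p under 0.05.

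Other interferon targets rose with the 34. Over all genes tested, 3.47% were called higher at wild-type ZT12 and 1.89% lower. Of 43 further interferon-stimulated genes, 17 were called higher and 0 lower, with a median log2 fold change of 0.91. These lists were read in the same fit and the same ZT12 libraries as the 34, so they are no separate support. Ifit3b rose by 2.50 ± 0.41, Ifi44l by 2.63 ± 0.47, Oas1g by 2.38 ± 0.36 and Ifi27l2a by 2.01 ± 0.30; Ifit3b and Oas1g are close copies of Ifit3 and Oas1a, so reads may have been split between them. The others called were Oas1b, Ifi204, Parp12, Dtx3l, Sp100, Sp110, Uba7, Slfn2, Apol9a, Phf11b, Phf11d, Rnf213 and Epsti1. Of 12 nucleic acid sensors and adaptors 3 rose, Ddx58 (RIG-I), Tlr9 and Cgas. Of 25 genes of the interferon gamma and antigen list 3 rose, Gbp3, Nlrc5 and the chemokine Cxcl10, and 1 fell, Ciita, the regulator of MHC class II genes. In knockout against wild-type liver at ZT12, Cxcl10 was lower by -2.31 ± 0.48 on the log2 scale (edgeR adjusted p = 0.0214), the 1 gene of these interferon lists called there.

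Averaged over the day, the upstream lists held about as many calls as all genes tested. Ifnar1 at -0.17, Ifngr2 at -0.49 and Tyk2 at -0.33, receptor chains and a kinase, were lower, as were the factors Irf3 at -0.41 and Irf5 at -0.63 and the adaptors Mavs at -0.35 and Ticam1 at -0.39 (log2). Ddx58 at 0.45 and Tbk1 at 0.50 were higher. That is 3 of 8 receptor and kinase genes, 2 of 7 factors and 4 of 12 sensors and adaptors called, against 33.2% of all genes tested, so nothing particular to these lists is shown. Without the 3 libraries that stood apart, Ifngr2, Tyk2, Irf3 and Irf5 stayed lower and Ddx58 and Tbk1 stayed higher, while Ifnar1, Mavs and Ticam1 were no longer called.

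Markers of other cell types were read at the same libraries. The summed level of 10 Kupffer cell markers was 738 and 762 CPM at knockout ZT12 and 561 to 842 CPM in the other knockout libraries. It was 984 CPM (set I) and 687 CPM (set P) at wild-type ZT12 and 520 to 932 CPM in the other wild-type libraries, so the library with the highest interferon level was also the highest of 24 in this sum. None of the 10 markers was called at wild-type ZT12, with 2 at an unadjusted p under 0.05, but 3 of them, Clec4f, Cd5l and C1qb, were called higher without the 3 libraries that stood apart. Among all marker lists Tat rose there and Cd79a and Sox9 fell. The sums for neutrophils and monocytes, 6.49 to 8.49 CPM at wild-type ZT12, for T and NK cells, 6.55 to 7.52 CPM, and for plasmacytoid dendritic cells, 2.43 to 2.67 CPM, lay within the range of the other wild-type libraries, while those of B cells were 6.67 to 9.28 CPM, against 8.78 to 20.5 CPM in the other wild-type libraries. Blood cell markers summed to 160 CPM (set I) and 197 CPM (set P) at wild-type ZT12, below the 214 to 338 CPM of the other wild-type libraries. The sinusoidal endothelium sum of 260 CPM at wild-type ZT12 of set I was the lowest of the 24 libraries, and that of set P was 319 CPM. No marker of these lists was at 0 in all 24 libraries. The part of cell composition in the ZT12 values was not tested. Of 16 acute phase genes, 0 were called at wild-type ZT12, with 5 at an unadjusted p under 0.05, 14 of the 16 values being below 0.

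Outside the 34 genes, those whose log2 CPM followed the mean level of the 34 most closely over the 24 libraries were Rnf213 at a Pearson r of 0.96, Ifit3b at 0.94, Ifi44l and Phf11b at 0.92, Oas1g at 0.91, Sp100 at 0.90, Phf11a at 0.89, and Ifi207, Phf11d and the macrophage receptor Siglec1 at 0.88. The points share libraries, depth and base composition. Among the 34, Ifit3 was closest to the mean level at 0.96, followed by Xaf1 at 0.95 and Rtp4 at 0.94. Ifi35 at 0.24, Stat2 at 0.25 and Bst2 at 0.41 followed it least. Each of the 34 genes is itself part of that mean level, which raises its r.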

How the data were processed

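The authors deposited raw read counts per Ensembl gene for 24 libraries, 1 column each, not normalized, as the values show. Stranded mRNA libraries were made with a TruSeq kit, per the labels' protocols; STAR 2.4.0i and build mm10 come from the submitters' processing notes. How reads were counted, with which annotation and strand setting, is not given in the sources used here, so overlapping or near-identical genes may have shared reads. Symbols (54409 of 54532 rows), coordinates, GC content and length came from GENCODE M21 of that build, and promoter windows from RefSeq.

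CPM values were computed here from the counts with TMM-scaled library sizes. Quasi-likelihood F-tests were run with edgeR 4.0.16 in R 4.3.3, with limma 3.58.1, on 15090 genes kept by filterByExpr, with 1 fit of 12 group means and 1 cosine fit per genotype. Benjamini-Hochberg adjustment ran over all genes tested, and an adjusted p under 0.05 was called. DESeq2 1.42.0 was an alternative. A standard error is the size of the log2 fold change over the root of F. Fits that leave out a library were made in the same way, and the fits were tested on simulated data. The members and lists were chosen with earlier results of these data known. Values are given for genes called in any comparison or with a library at 3 times their genotype's median.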

Additional observations from a re-analysis of the deposited data

How the results depend on the processing

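Counts of the 34 genes called are given. The letters I and P are not shown to pair libraries. Deviations from the group means of same-letter knockout and wild-type libraries correlated over all genes tested at r of 0.155, 0.106, 0.207, 0.0591, 0.0329 and 0.0726 for the 6 times in order, under the limit of 0.1 at 3 of them. Over 11244 genes with a mean log2 CPM above 1, a subset chosen after those values and earlier results were seen, r was 0.279, 0.202, 0.322, 0.125, 0.128 and 0.139. All were above 0, a hint from the data and not from the design. With the letter as a replicate block, 12 genes were called for knockout against wild type over the day, 9 higher and 3 lower, against 52.3% of all genes tested, and 1 at ZT20, and no other count moved by over 1.5 times. DESeq2 called 9 over the day, 15 at ZT12, 1 at ZT20 and 16 for the interaction of genotype and ZT12. Of all genes tested it called 5250, 415, 1228 and 80, against 5007, 279, 593 and 5 in the reported fit. Without the filter on low counts, edgeR called 14 over the day, 10 at ZT04, 21 at ZT12, 11 at ZT16, 9 at ZT20, 1 for knockout ZT12, 23 for the interaction, 3 for the knockout rhythm and 6 for the rhythm difference. The GC and length offset, added after the data were seen, gave 1 at ZT04, 15 at ZT12 and 6 for the interaction, against 319, 514 and 33 of all genes tested. Without the wild-type set I libraries of ZT04, ZT16 and ZT20, also added later, there was 1 over the day, 17 at ZT12 and 1 for the interaction. The wild-type rhythm was called for 0 genes in set P alone, 0 in set I alone, 3 without ZT12 and 5 without both wild-type ZT12 libraries. The knockout rhythm was called for 1 in set P alone. Over all genes tested, those fits called 833, 0, 450, 532 and 806 in the same order. The reported fit called 1308 for the wild-type and 538 for the knockout rhythm. The cause of these shifts was not tested, but fits of 1 set, of fewer times or without libraries hold fewer samples.

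With 1 library left out, counts ran from 0 to 15 over the day, 0 to 18 at ZT12, 0 to 15 at ZT20, 2 to 24 for wild-type ZT12, 0 to 15 for the interaction and 5 to 15 for the wild-type rhythm. They stayed at 0 for ZT04, ZT08, ZT16, ZT24, knockout ZT12, the knockout rhythm and the rhythm difference. A lone library is assumed to vary like the other groups. The mean level of the wild-type ZT12 library of set I was 1.65 and 1.75 with pseudocounts of 1 and 0.1 CPM and 1.76 as a median over genes. No gene called in the reported fits changed sign under the settings run. The balance of directions over the day did turn. Set P alone gave 6 higher and 0 lower, and set I alone 1 higher and 4 lower. Directions over all genes tested were not taken in those 2 fits, so this is not shown to be particular to these genes. Genes such as Oas3 and Mx1 averaged 3.48 and 3.02 CPM, and with 2 libraries a group small differences in them are not detectable at this depth.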
